A study of Homo sapiens with 4 samples.

Results

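The 40 genes described here are the transcription factor ATF4, its best known targets in the response to amino acid shortage, and 12 cytosolic aminoacyl-tRNA synthetases with the tRNA exporter XPOT. The list follows what is known of the pathway and was read among 18417 genes on the array. It was chosen with earlier results of these data known, so its shares beside those of all kept genes are descriptions only. All 40 had a probe set that the platform annotation gives to that gene alone, and where there were several the brightest by its mean stood for the gene. RNA came from MCF12A, an immortalised non-tumorigenic human breast epithelial line, grown as monolayers in medium that held horse serum, insulin, hydrocortisone, cholera toxin and epidermal growth factor. One culture spent 1 week in 25 mM ethanol and had its own unexposed culture, control 1, while another spent 1 week in acetaldehyde at 2.5 mM and had its own, control 2. Each of the 4 cultures was read on 1 Affymetrix Human Gene 1.0 ST array, so every comparison below sets 1 array against 1. No replicate error and no test stands behind any of them, and each value describes these cultures only.

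When amino acids run short, uncharged tRNAs activate the kinase GCN2, which phosphorylates the initiation factor eIF2. Most translation then slows while the ATF4 message is translated more. ATF4 binds C/EBP-ATF response elements together with C/EBP partners, and it raises genes that make, import and charge amino acids, along with stress proteins that feed back on the pathway. The unfolded protein response reaches ATF4 through another eIF2 kinase, and lack of cystine, which limits glutathione, is a further known trigger.

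Median intensities over all probe sets lay between 90.2 and 113.8. Sorted log2 values of ethanol and control 1 were on average 0.0398 apart, those of acetaldehyde and control 2 0.0268, and those of arrays from different experiments 0.270 to 0.285, so levels set across the experiments carry a difference of scale. Of the basal epithelial markers measured 5 of 5 reached the filter intensity of 155 on every array. KRT5 was at 9757 to 12169, whereas KRT14 varied from 822 with acetaldehyde to 5075 in control 1. Luminal markers reached it for 5 of 7 genes with ethanol, 5 in control 1, 5 with acetaldehyde and 6 in control 2. Among these KRT8 was at 2580 to 5292 and EPCAM at 370 to 1396. None of 3 endothelial markers did. Of 3 leukocyte markers CD14 did, at 287 with ethanol, 189 in control 1, 183 with acetaldehyde and 279 in control 2, while CD3E stayed between 31.1 and 52.1 and PTPRC between 10.3 and 15.9. Fibroblast markers reached the filter for 1 of 5 genes with ethanol, 1 in control 1, 2 with acetaldehyde and 2 in control 2. Genes that reached that filter on at least 1 array were kept for counting, which left 10373. Values for single arrays, or ranges over them, are linear intensities. Where a comparison of 2 arrays puts a gene at a single value, that value is its difference of log2 intensity. Of the 40 genes 38 were kept. The 2 left out were ATF3, a stress-induced transcription factor, at 83.2 to 106.4, and VLDLR, a lipoprotein receptor, at 63.9 to 139.6.

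The response element was looked for in RefSeq promoter sequence (build GRCh38.p14), in the 250 bases before each gene start, as TGATGNAAN on either strand. Promoters were held for 33 of the 40 genes and 5 of these contained it (15.2%), against 867 of all 27305 promoters (3.18%). The 7 genes with none held were SLC7A11, PSPH, SHMT2, PYCR1, NUPR1, LARS1 and YARS1. Each stretch shows its match in capitals with up to 30 bases on either side, 5′ to 3′ along the gene, so that the element can be set beside the values of its gene. In CHAC1, AARS1 and IARS1 the match is on the opposite strand and therefore reads as its reverse complement. A match is a run of letters and not a measured binding site.
CHAC1, chr15:40953231-40953299 (+): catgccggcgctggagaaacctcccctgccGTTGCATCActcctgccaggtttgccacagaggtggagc
ASNS, chr7:97872438-97872506 (-): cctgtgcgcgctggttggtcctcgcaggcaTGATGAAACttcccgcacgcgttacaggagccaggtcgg
AARS1, chr16:70289656-70289724 (-): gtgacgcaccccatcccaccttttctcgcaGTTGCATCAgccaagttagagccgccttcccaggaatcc
IARS1, chr9:92293698-92293741 (-): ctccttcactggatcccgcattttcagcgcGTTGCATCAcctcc
ATF3, chr1:212565186-212565254 (+): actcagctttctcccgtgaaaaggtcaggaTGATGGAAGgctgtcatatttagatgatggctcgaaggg
The matches begin 210 bases before the gene start in CHAC1, 68 in ASNS, 188 in AARS1, 14 in IARS1 and 191 in ATF3. With ethanol CHAC1, ASNS and AARS1 were each at least 1.5-fold below control 1, whereas IARS1 was at 0.13 (log2) and ATF3 was too dim to be counted. Promoters with no match behaved in both ways too, since TRIB3 was at -0.93 and SLC3A2 at -0.079.

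**Figure D1:**
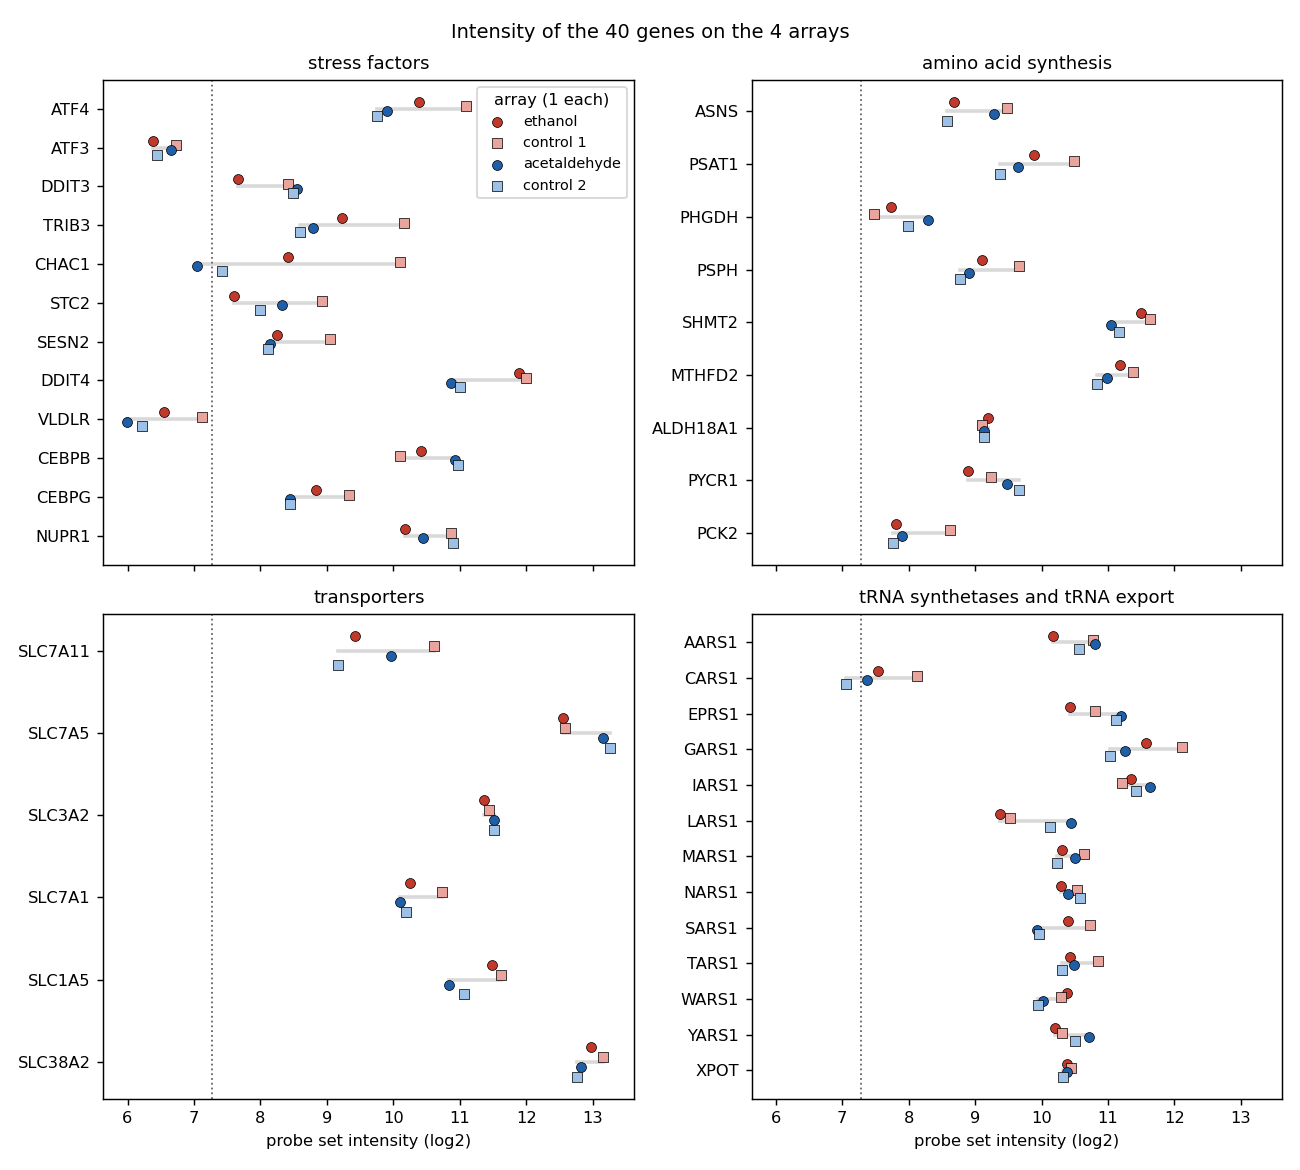
Probe set intensity (log2, x axis) of the 40 genes in 4 panels by role, with 1 point per array: dark red circles ethanol, pale red squares control 1, dark blue circles acetaldehyde, pale blue squares control 2. The dotted line is the filter intensity of 155, and grey bars span the 4 arrays. For 23 of the 38 kept genes the control 1 square is the point furthest to the right.

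On balance the list was lower with ethanol than in control 1. The median difference over the 38 kept genes was -0.36 (log2), against 0.051 over all kept genes, and 33 of 38 were below control 1, against 42.2% of all kept genes. At a threshold of 1.5-fold 12 genes were lower, which is 31.6% against 4.22% of all kept genes, and 0 were higher, against 5.44%. At 2-fold the lower genes were CHAC1, STC2 and SLC7A11, which is 7.89% against 2.11%. Medians ran from -0.74 for stress factors (10 genes) through -0.34 for amino acid synthesis (9) and -0.33 for tRNA synthetases and export (13) to -0.16 for transporters (6).

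Among the stress factors, ATF4 itself was read by 2 probe sets that disagreed. Probe set 8180337 had 1335 with ethanol, 2189 in control 1, 960.0 with acetaldehyde and 859.8 in control 2, a difference of -0.71 (log2) for ethanol minus control 1. Probe set 8073148 had 555 with ethanol, 411 in control 1, 447 with acetaldehyde and 472 in control 2, a difference of 0.43. The brighter one, used in the counts, puts control 1 highest and the dimmer one puts it lowest, so the direction for the ATF4 transcript is not settled by these arrays.

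Each ATF4 target among the stress factors had 1 probe set. CHAC1, which degrades glutathione, had 340.0 with ethanol, 1102 in control 1, 132 with acetaldehyde and 172 in control 2. Control 1 was far above the other 3 cultures, and ethanol was 3.24-fold below it. The acetaldehyde value was under the filter intensity. STC2, a secreted glycoprotein, had 195 with ethanol, 488 in control 1, 319 with acetaldehyde and 256 in control 2. It was 2.51-fold below control 1 with ethanol and was lower there than on any other array. TRIB3, a pseudokinase that restrains ATF4, had 602 with ethanol, 1149 in control 1, 445 with acetaldehyde and 386 in control 2. Ethanol was 1.91-fold below control 1 and still above both arrays of the acetaldehyde experiment.

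DDIT3, the pro-apoptotic factor CHOP, had 202 with ethanol, 342 in control 1, 376 with acetaldehyde and 359 in control 2. Here the ethanol array stood alone, 1.70-fold below control 1, and the other 3 were close to each other. NUPR1, a small stress-induced chromatin protein, had 1158 with ethanol, 1876 in control 1, 1389 with acetaldehyde and 1899.5 in control 2. The controls were alike and both exposed cultures were below their own, 1.62-fold with ethanol. SESN2, a leucine sensor that restrains mTORC1, had 305 with ethanol, 527 in control 1, 283 with acetaldehyde and 276 in control 2. It was 1.73-fold lower with ethanol, close to both arrays of the acetaldehyde experiment.

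The remaining kept stress factors were within 1.5-fold of control 1. CEBPG, a dimer partner of ATF4, was at -0.50 (log2), with 459 with ethanol against 647 in control 1. DDIT4, another mTORC1 inhibitor, was at -0.12. CEBPB, a C/EBP factor that ATF4 induces and also binds, was the 1 stress factor above control 1, at 0.31, with 1360.1 with ethanol, 1094 in control 1, 1957 with acetaldehyde and 2004 in control 2. The dim ATF3 was at -0.35 and VLDLR at -0.57.

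In amino acid synthesis 7 of 9 genes were below control 1, against 42.2% of all kept genes, and 3 passed 1.5-fold, against 4.22%. ASNS, which makes asparagine, had 411 with ethanol, 717 in control 1, 626 with acetaldehyde and 383 in control 2. Control 1 and acetaldehyde formed a high pair, and ethanol was 1.74-fold below control 1. PCK2, a mitochondrial enzyme that links amino acid carbon to sugar synthesis, had 225 with ethanol, 394 in control 1, 238 with acetaldehyde and 217 in control 2. Control 1 stood alone above the other 3 arrays, and ethanol was 1.75-fold below it.

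Serine is made in consecutive steps by PHGDH, PSAT1 and PSPH, and the steps differed. PSAT1 had 943 with ethanol, 1429.8 in control 1, 799 with acetaldehyde and 667 in control 2, which is 1.52-fold lower with ethanol than in control 1. PSPH was at -0.55 (log2) with its brighter probe set and -0.59 with the other one, with 551 with ethanol, 806 in control 1, 479 with acetaldehyde and 436 in control 2 for the brighter. PHGDH went the other way at 0.26, with 214 with ethanol, 179 in control 1, 314 with acetaldehyde and 254 in control 2. Its probe set was dim, and a brighter one that the annotation shares with MZT2B was at -0.13 and was not used. The mitochondrial folate enzymes, which take one-carbon units from serine, were close to control 1, with SHMT2 at -0.13 and MTHFD2 at -0.20 (-0.15 with its other probe set). In proline synthesis ALDH18A1 was at 0.09 and PYCR1, which completes the pathway, at -0.34.

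Of the transporters only SLC7A11 passed 1.5-fold. SLC7A11, the light chain that exchanges cystine for glutamate, had 689 with ethanol, 1560.1 in control 1, 1003 with acetaldehyde and 578 in control 2. Control 1 was highest, acetaldehyde second, and ethanol was 2.26-fold below control 1. SLC3A2, the heavy chain it shares with SLC7A5, was at -0.079 (log2) and SLC7A5, which carries leucine and other large neutral amino acids, at -0.03. The arginine and lysine carrier SLC7A1 was at -0.48, the neutral amino acid carrier SLC38A2 at -0.18 and the glutamine carrier SLC1A5 at -0.14. SLC1A5 had a second, dim probe set (126 with ethanol, 131 in control 1, 176 with acetaldehyde and 170.2 in control 2), which was at -0.06 here and, for control 2 minus control 1, at 0.38 where the brighter one was at -0.56. All 6 transporters were below control 1, against 42.2% of all kept genes, but 5 of them by less than 1.5-fold.

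The tRNA synthetases, which join each amino acid to its tRNA, were lower by small amounts. With ethanol 11 of the 13 genes were below control 1, against 42.2% of all kept genes. Only 1 passed 1.5-fold, against 4.22%, a count too small to be read against that share. That gene was AARS1 (alanine), with 1149.7 with ethanol, 1750.4 in control 1, 1780.1 with acetaldehyde and 1516 in control 2, which is 1.52-fold below control 1 and lowest of the 4 arrays. CARS1 (cysteine) was just inside the threshold at 1.49-fold, with 187 with ethanol, 278 in control 1, 165 with acetaldehyde and 134 in control 2. GARS1 (glycine) followed at 1.46-fold, with 3028 with ethanol, 4429 in control 1, 2451 with acetaldehyde and 2089 in control 2. In CARS1 and GARS1 ethanol lay between its control and the acetaldehyde experiment.

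Next came TARS1 (threonine) at -0.41 (log2), EPRS1 (glutamate and proline) at -0.37, MARS1 (methionine) at -0.33, SARS1 (serine) at -0.33 and NARS1 (asparagine) at -0.24. LARS1 (leucine) at -0.15, YARS1 (tyrosine) at -0.11 and XPOT, which carries tRNA out of the nucleus, at -0.069 differed least among those below control 1. WARS1 (tryptophan), which interferon also induces, was above it at 0.088, and IARS1 (isoleucine) at 0.13.

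**Figure D2:**
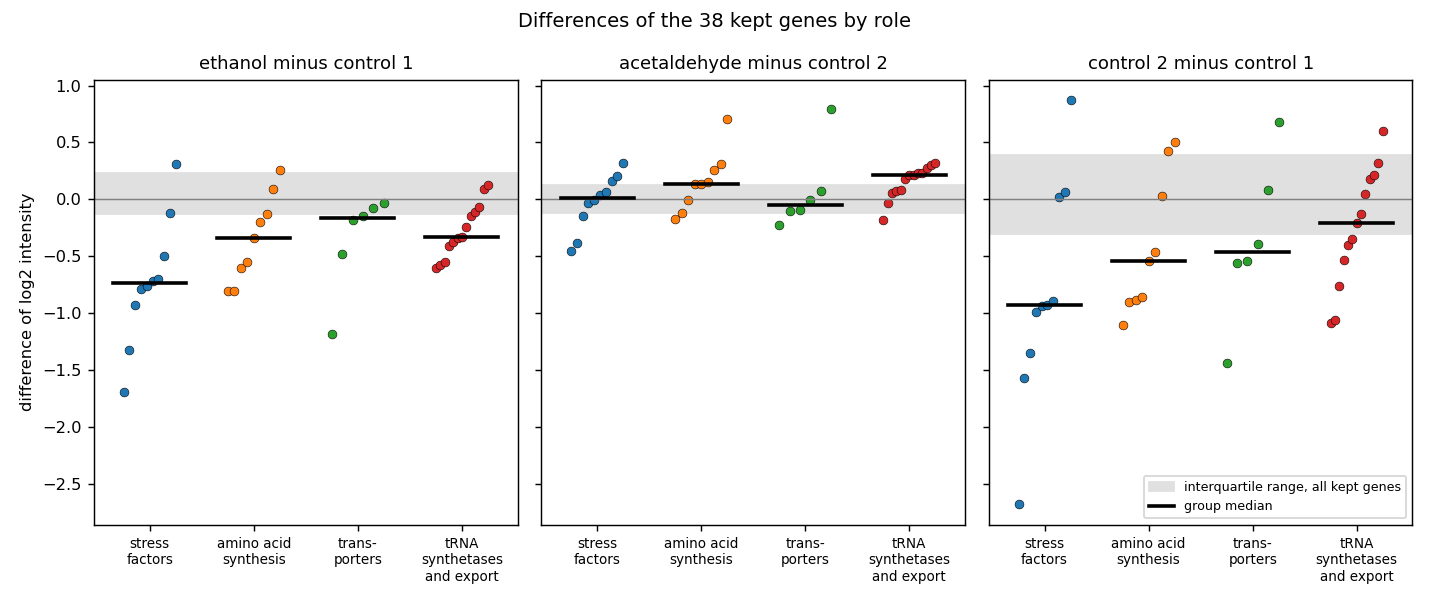
Differences of log2 intensity (y axis) for the 38 kept genes in 4 roles, in 3 panels: ethanol minus control 1, acetaldehyde minus control 2, and control 2 minus control 1. Points are genes in ascending order, black bars group medians, and the grey band is the interquartile range of all kept genes. Stress factors have medians of -0.74, 0.015 and -0.93 in the 3 panels.

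With acetaldehyde the genes of the list were close to control 2 or slightly above it. The median over the 38 was 0.077 (log2), against 0.0031 for all kept genes, and 24 of 38 were above control 2, against 50.7% of all kept genes. Past 1.5-fold 2 genes were higher (5.26%, against 0.742% of all kept genes) and 0 were lower (against 0.974%). The 2 were SLC7A11, 1.74-fold higher at 1003 with acetaldehyde against 578 in control 2, and ASNS, 1.64-fold higher at 626 against 383. Both acetaldehyde values lay between control 2 and control 1.

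The synthetases were the role group with the highest median with acetaldehyde, 0.21. Of the 13, 11 were above control 2, against 50.7% of all kept genes, each by less than 1.5-fold. LARS1 was at 0.32 (log2), with 1395 with acetaldehyde and 1120.0 in control 2. CARS1 was at 0.31, MARS1 at 0.27, AARS1 at 0.23 and GARS1 at 0.23, while NARS1 at -0.18 and SARS1 at -0.032 were below control 2. For LARS1, EPRS1, IARS1, YARS1 and AARS1 the acetaldehyde array was the highest of the 4. That is 5 of 13, against 22.7% of all kept genes, on levels that carry the difference of scale between the experiments. For LARS1, EPRS1, IARS1 and YARS1 control 2 was also above control 1. For AARS1 control 1 was nearly as high as acetaldehyde, at 1750.4 against 1780.1.

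In amino acid synthesis (median 0.14) PHGDH was at 0.31, PSAT1 at 0.26 and PSPH at 0.14. All 3 serine enzymes were thus above control 2 with the probe sets used in the counts. The other PSPH probe set was at -0.19, however, and the brighter PHGDH probe set shared with MZT2B at -0.23. PYCR1 was at -0.17 and SHMT2 at -0.12. Stress factors were divided, 5 above and 5 below, with a median of 0.015 that turned to -0.0024 when all 4 arrays were quantile-normalized together. STC2 was at 0.32, TRIB3 at 0.21 and DDIT3 at 0.067, whereas NUPR1 was at -0.45 and CHAC1 at -0.38. Apart from SLC7A11 the transporters lay between -0.23 (SLC1A5) and 0.071 (SLC38A2).

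**Figure D3:**
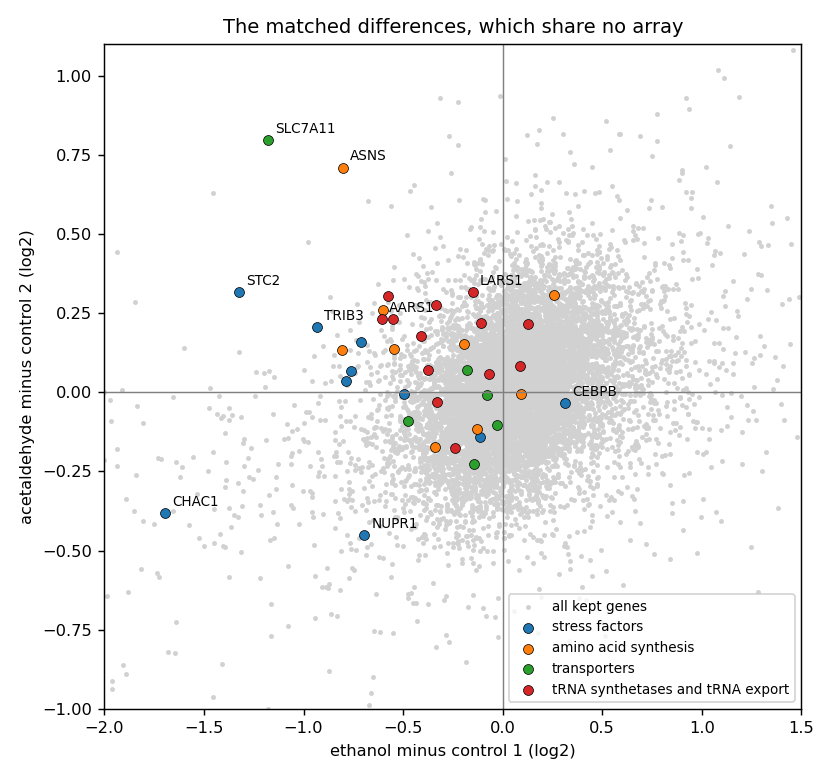
Ethanol minus control 1 (log2, x axis) against acetaldehyde minus control 2 (log2, y axis) for all kept genes (grey) and the 38 kept genes in colours by role. The axes are cropped, so the outermost grey points are not shown. SLC7A11 (-1.18 and 0.80) and ASNS (-0.80 and 0.71) lie at the upper left, NUPR1 (-0.70 and -0.45) and CHAC1 (-1.70 and -0.38) at the lower left.

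The 2 matched differences share no array and could be set against each other. The difference for ethanol was below that for acetaldehyde in 32 of 38 genes (84.2%, against 42.8% of all kept genes), with a median of -0.42 (log2), against 0.047 over all kept genes. In 16 genes it was lower by at least 1.5-fold (42.1%, against 4.17% of all kept genes) and in 0 it was higher by that much (against 5.2%). SLC7A11 was furthest apart at -1.97, then STC2 at -1.64, ASNS at -1.51, CHAC1 at -1.31 and TRIB3 at -1.14. CEBPB, at 0.35, was furthest in the other direction. Doses, compounds and control cultures all differ between the experiments, and with 1 array per arm this difference has no test.

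Without any exposure the controls differed from each other in this list too. Control 2 was below control 1 for 25 of 38 genes (65.8%, against 45.5% of all kept genes), with a median of -0.50 (log2) against 0.057. It was at least 1.5-fold lower for 15 (39.5%, against 12.9%) and higher for 3 (7.89%, against 14.9%). Past 2-fold 7 were lower (18.4%, against 4.85%). Centring each array on its median moved the median of all kept genes in this comparison to -0.15, a shift of the scale itself, and the split to 21 lower and 1 higher. The shares of all kept genes were not counted under that setting.

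CHAC1 was 6.41-fold lower in control 2 than in control 1, TRIB3 2.98-fold, SLC7A11 2.70-fold, the brighter ATF4 probe set 2.55-fold and PSAT1 2.14-fold. Among synthetases GARS1 was 2.12-fold lower, CARS1 2.08-fold and SARS1 1.70-fold, whereas LARS1 was 1.52-fold higher. DDIT4, within 1.5-fold of control 1 with ethanol, had 2060.4 in control 2 against 4098 in control 1 (1.99-fold lower). CEBPB was 1.83-fold higher in control 2 and SLC7A5 1.60-fold, with 6012 with ethanol, 6139.9 in control 1, 9146 with acetaldehyde and 9822 in control 2. The 2 arrays of each experiment were therefore closer to each other than to the other experiment for SLC7A5 and DDIT4.

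Ethanol minus control 1 and control 2 minus control 1 both subtract control 1, so an array that is high by itself enters both with the same sign. Control 1 was the highest of the 4 arrays for 23 of 38 genes (60.5%, against 19.8% of all kept genes), and for 22 after quantile normalization of all 4 together. These were 7 of 10 stress factors, 6 of 9 synthesis genes, 4 of 6 transporters and 6 of 13 tRNA genes. The ethanol value lay between the controls for 25 of the 38 genes (65.8%, against 36.7% of all kept genes). Of the 12 genes at least 1.5-fold below control 1 with ethanol, 4 were also below control 2, namely DDIT3, STC2, NUPR1 and AARS1. That is 33.3% of the 12, a smaller share than the 67.1% (294 of 438) among all kept genes with such a difference. Over whole lists it is 10.5% of the 38, against 2.83% of all kept genes. The 8 others, among them CHAC1, TRIB3, SLC7A11 and ASNS, were above control 2. Set against control 2 in place of control 1, ethanol had a median of 0.084 over the 38 genes, with 4 genes at least 1.5-fold higher (10.5%, against 15.4% of all kept genes) and 6 lower (15.8%, against 14.7%), so both shares were near or under those of all kept genes. Set against control 1, acetaldehyde had a median of -0.37, with 3 higher (7.89%, against 14.6%) and 16 lower (42.1%, against 12.4%).

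Control 1 also differed from the other cultures in markers of squamous differentiation and of proliferation. The summed intensity of 17 squamous markers, such as SPRR3 and IVL, was 2939 with ethanol, 34727 in control 1, 5573 with acetaldehyde and 11665 in control 2. All 15 kept squamous markers were at least 1.5-fold lower with ethanol than in control 1, against 4.22% of all kept genes. In control 2 12 were at least 1.5-fold lower than in control 1, against 12.9%. The 3 exceptions between the controls were PI3 at -0.39 (log2) for control 2 minus control 1, KRT10 at 0.28 and KRT1 at 1.29. The summed intensity of 12 proliferation markers, such as KIF20A, was 10246 with ethanol, 7252 in control 1, 14425 with acetaldehyde and 13753 in control 2. With ethanol 11 of the 12 were above control 1, 5 of them at least 1.5-fold, against 5.44% of all kept genes. In control 2 11 were above control 1, 10 of them at least 1.5-fold, against 14.9%. The exceptions were AURKB at -0.038 (log2) with ethanol and CDK1 at -0.16 for control 2 minus control 1. The part of both marker lists in the values of the ATF4 genes was not tested. In such bulk RNA, fewer cells of one kind and less RNA per cell cannot be told apart.

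Genes around the pathway were described from lists of textbook members, also chosen with earlier results of these data known. Other ATF4 pathway genes had 13 kept, of which 11 were below control 1 with ethanol (median -0.18), against 42.2% of all kept genes. The glycine transporter SLC6A9 was at -0.72 (log2) and the cysteine-forming enzyme CTH at -0.67. In all 3 were at least 1.5-fold lower and 1 higher, against 4.22% and 5.44% of all kept genes. With acetaldehyde 10 of the 13 were above control 2 (median 0.086), against 50.7% of all kept genes. The stress cytokine GDF15 at 0.49 and the transcription factor ATF5 at -0.25 were furthest from 0. Between the controls the median was 0.025 and the list went both ways, with SLC6A9 at -1.47 and KLHL24, an adaptor of protein degradation, at 1.21 for control 2 minus control 1.

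Synthetases outside the 12 were within 1.5-fold of control 1 with ethanol, and so were 12 of the 13 tRNA genes of the list (median -0.33). Of the 8 other cytosolic synthetases and scaffold proteins measured, 6 were above control 1 and 0 passed 1.5-fold, with a median of 0.094. The valine enzyme VARS1 was at -0.35 and the arginine enzyme RARS1 at 0.26. The 16 mitochondrial synthetases had a median of 0.071, 12 were above control 1 and 0 passed 1.5-fold, with YARS2 at 0.43 and NARS2 at 0.29. Over all kept genes 5991 of 10373 were above control 1, with a median of 0.051. With acetaldehyde the medians were -0.052 and 0.027, RARS1 being at 0.18, FARSB (phenylalanine) at 0.13, RARS2 at 0.25 and WARS2 at 0.24. Between the controls they were -0.21 and 0.081, against -0.21 for the 13 tRNA genes of the list, a median that became -0.10 under quantile normalization of all 4 arrays and -0.40 under centring. KARS1 (lysine) was at 0.64, RARS1 at -0.59, AARS2 at 0.82 and LARS2 at 0.76.

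**Figure D4:**
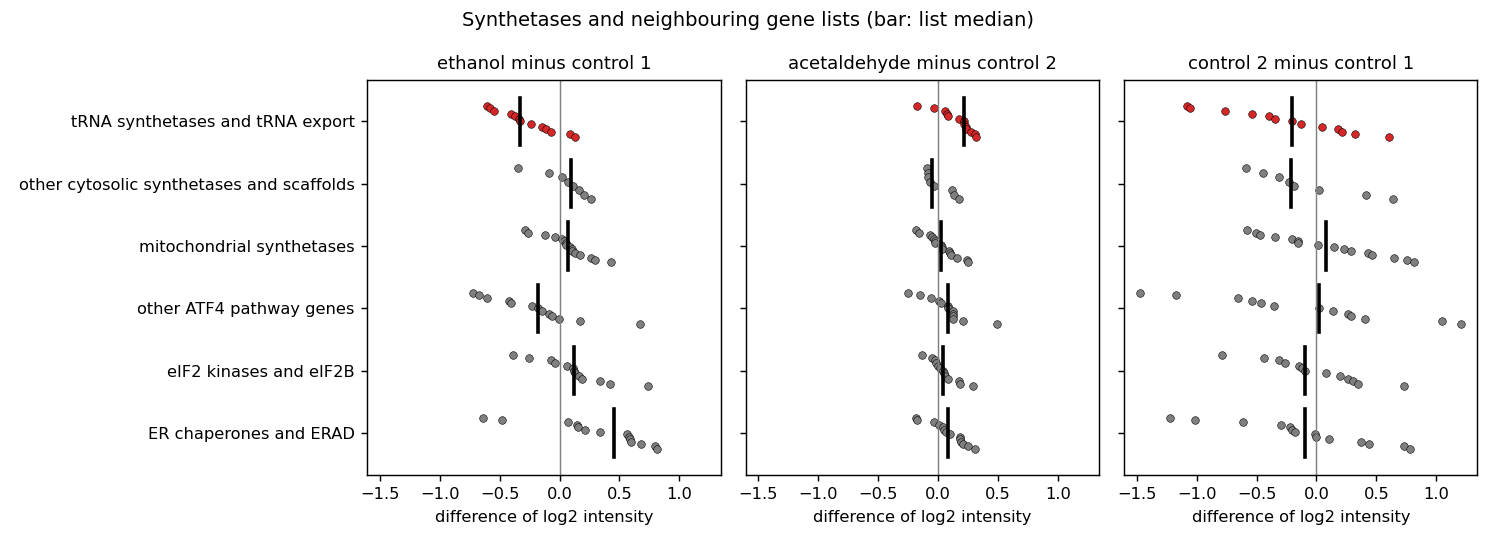
Differences of log2 intensity (x axis) in 3 panels (ethanol minus control 1, acetaldehyde minus control 2, control 2 minus control 1) for the 13 tRNA genes of the list (red) and 5 neighbouring lists (grey). Each point is a kept gene and each black bar a list median. With ethanol the 13 tRNA genes have a median of -0.33 and the ER chaperone list one of 0.45.

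Upstream of ATF4, a list of 13 genes (eIF2 kinases, eIF2B subunits, EIF2S1, GCN1, IMPACT and PPP1R15B) had a median of 0.12 with ethanol. EIF2AK2, the kinase that senses double-stranded RNA, was the 1 gene past 1.5-fold, at 0.74, and EIF2AK4, which encodes GCN2, was at 0.42. A count of 1 in 13 is near the 5.44% of all kept genes that were at least 1.5-fold higher. With acetaldehyde the median was 0.039, with EIF2AK2 at 0.29 and the GCN2 inhibitor IMPACT at 0.18. Between the controls it was -0.098, with EIF2B1 at -0.79 and GCN1, a GCN2 activator, at 0.73. Chaperones and degradation factors of the endoplasmic reticulum (14 genes) were mostly higher with ethanol, with a median of 0.45. In this list 12 were above control 1, against 5991 of all 10373 kept genes. At least 1.5-fold higher were 5, against 5.44% of all kept genes. PDIA4 was at 0.82 and DNAJC3 at 0.80. The 2 of this list below control 1 were XBP1 at -0.64 and HERPUD1 at -0.48. For control 2 minus control 1 the same genes were lowest, at -1.01 and -1.22, in a list with a median of -0.097. In that comparison 5 of the 14 were above control 1 and 9 below. At least 1.5-fold higher were 2, against 14.9% of all kept genes, and 3 were lower, against 12.9%. PDIA4 was at 0.78 there, nearly its value with ethanol, whereas DNAJC3 was at -0.61. With acetaldehyde the median was 0.084, HSPA5, the main chaperone of that compartment, being at 0.31 and SEL1L at 0.25.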

How the data were processed

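The deposited table held linear probe set intensities for 4 arrays, from 3.13 to 22858, made by the authors with RMA per the submitters' processing notes (the software version is not given in the sources used here). Log2 was taken with no offset. Distributions lay closer within each experiment than between them; whether the 2 experiments were normalized separately is likewise not given in these sources. Of 33297 probe sets, 19460 named 1 gene, 1754 several and 12083 none, and 19429 matched RefSeq (GRCh38.p14) by gene identifier. The filter was the median over probe sets that name 1 gene (log2 7.28).

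Groups came from the sample labels. Comparisons were differences of log2 intensity between 2 arrays, with no test, beside all kept genes. All 40 genes are named, and of each list around the pathway the 2 furthest from 0 in a comparison. Squamous and proliferation markers were named as examples or as exceptions. Cell type markers, those exceptions, and XBP1 and HERPUD1 with ethanol were named after their values were seen. So were PDIA4 and DNAJC3 between the controls. The genes and lists were chosen with earlier results of these data known. Arrays carry no read depth, and their number limits the precision. Counting was tested on simulated data. Python 3.11.15, pandas 2.3.3, numpy 2.4.6 and matplotlib 3.10.9 were used. Alternatives covered normalization, centring, an offset of 16, probe set means, the filter, the threshold and the other experiment's control.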

Additional observations from a re-analysis of the deposited data

How the results depend on the processing

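With no replicates, a median counted as moved when it changed by over 1.5 times and by at least 0.1 (log2), and a count when it changed by over 1.5 times. Quantile normalization of all 4 arrays, an offset of 16, the mean of a gene's probe sets and no filter kept the medians and counts over the list within that range in all 3 comparisons. So did centring the arrays, except that control 2 was then at least 1.5-fold above control 1 for 1 gene in place of 3. Among medians by role, that of the stress factors with acetaldehyde turned to -0.0024 under quantile normalization. For control 2 minus control 1, that of the tRNA genes (-0.21) became -0.10 under quantile normalization and -0.40 under centring, and that of the transporters (-0.46) became -0.24 with the mean of probe sets. At 2-fold, 3 genes were lower with ethanol, 0 were higher with acetaldehyde, and between the controls 7 were lower and 0 higher in control 2. The control of the other experiment turned both exposure medians. Against control 2 ethanol had a median of 0.084, with 4 genes higher and 6 lower, and against control 1 acetaldehyde had a median of -0.37, with 16 lower. The count of genes at least 1.5-fold below control 1 and below control 2 with ethanol, added after the data were seen, was 4 under each normalization, centring, probe set and filter setting tried. Control 1 was the highest array for 22 to 28 genes under these settings, with the share of all kept genes counted only for the values as deposited. No gene at least 1.5-fold apart changed its direction under the normalization, centring, offset or probe set alternatives. ATF4 moved, however, with the mean of its 2 discordant probe sets. It was then at -0.14 (log2) for ethanol minus control 1 and -0.57 for control 2 minus control 1, both within 1.5-fold. Signal was under the filter on every array for ATF3 and VLDLR, with acetaldehyde for CHAC1 and in control 2 for CARS1, and the absence of replicate arrays limits every value.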
